A study of Homo sapiens and Mus musculus with 20 samples.

Results

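Aminoacyl-tRNA synthetases are the enzymes that join each amino acid to its transfer RNA. The members described here are 35 genes, taken by symbol from the deposited gene lists of IMR90 cells: 19 that code for the cytosolic enzymes and 16 whose symbols end in 2 and that code for the mitochondrial enzymes. The lists held 16683 genes for A485, 16417 for MS-275 and 12013 for pyruvate. They listed 34, 34 and 33 of the 35 members, since VARS2 was in none of them and VARS1 was missing from the pyruvate list. Every listed member had a mean of at least 10 reads and so entered the tests. The genes were chosen for a contrast between cytosolic and mitochondrial enzymes seen in these 3 comparisons, so their values there are a description and carry no test. The comparisons in mouse muscle took no part in that choice.

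Expression was measured by bulk RNA-seq in 20 libraries, 10 groups of 2 forming 5 comparisons, each with its own numbered control. IMR90, a normal human lung fibroblast line of WT genotype, received A485 (an inhibitor of the acetyltransferase p300, set against untreated Control2), MS-275 (which inhibits histone deacetylases of class I, against Control3) or pyruvate (against Control6). The methods of the study state that non-essential amino acids were added to the IMR90 medium, and its text describes the cells given pyruvate as senescent. The labels give no dose, time or passage. Gastrocnemius muscle came from WT C57BL/6 mice: middle-aged females with MS-275 injected into the muscle, against Control4, and old mice injected with NALA, which is sodium lactate, against Control5. The labels say only that the controls had no treatment. No source says that the 2 libraries of a group came from separate cultures or animals, so p-values measure only the spread between these libraries, which may be technical.

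Depth, summed over listed genes, was 24179065 to 46971227 reads in the 12 IMR90 libraries and 10836858 to 14190054 in the 8 from muscle. The fibroblast label was checked with 8 markers, and all 8, collagens and VIM among them, were listed in each IMR90 comparison. The endothelial genes PECAM1 and CDH5 and the immune genes PTPRC, CD68 and CD3E were not listed in any of the 3. Some markers of other cell types were: the endothelial gene VWF had 34.2 and 102 normalized reads in Control2 and 0 and 0 after A485, and the immune gene CD14 stayed between 0 and 24.9 in the 8 libraries that list it. Of 4 epithelial markers CDH1 was not listed in any of the 3, KRT18 had 1857 and 1644 in Control2 and 650 and 750 after A485, and EPCAM had 64.2 and 47.7 in Control2 and 208 and 177 after A485. In muscle, 4 of 7 fibre markers were listed. Acta1, the skeletal muscle actin, and Tnnt3 and Atp2a1, which belong to fast fibres, were not, and Ckm held only 13.4 to 70.9 normalized reads over the 8 libraries.

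A cell needs 1 such activity per amino acid in the cytosol and a second set in the mitochondrion, where a small set of proteins is made for the respiratory chain. In the cytosol, EPRS1, IARS1, KARS1, LARS1, MARS1, QARS1 and RARS1 are held with the scaffold proteins AIMP1, AIMP2 and EEF1E1 in the multisynthetase complex, whereas the other cytosolic enzymes act outside it. GARS1 and KARS1 code for both a cytosolic and a mitochondrial enzyme. Mitochondria lack a glutaminyl enzyme of their own and correct a mischarged transfer RNA with the amidotransferase QRSL1, GATB and GATC. When amino acids run short, uncharged transfer RNA activates the kinase EIF2AK4, translation of the transcription factor ATF4 rises, and ATF4 raises genes for amino acid supply and for many cytosolic synthetases.

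ATF4 and its partners are known to bind a short composite element, TGATGNAAN. It was searched on both strands from 250 bases before to 50 bases after the RefSeq start of each gene (GRCh38.p14), as promoters of genes that move together. Of the 35 members, 30 had a window, and LARS1, VARS1, YARS1, AARS2 and VARS2 had none. The element was in 6 of 16 cytosolic windows and in 1 of 14 mitochondrial ones, and 3.61% of all 35116 promoter windows held it. The form TGATGCAAC was in 5 of the 6 cytosolic windows and in 0.216% of all windows. It was picked as the most frequent form among the members' own matches, so nothing is read from that contrast. The lines below give the matches other than that of NARS1 with 10 bases on either side, read on the strand that starts with TGATG, with the element in capitals; a match is a description of sequence only.
AARS1: ctaacttggcTGATGCAACtgcgagaaaa
CARS1: tcctagaatcTGATGCAACcgccgccccg
IARS1: cgcacggaggTGATGCAACgcgctgaaaa
MARS1: aatccctcgcTGATGCAACcggaaccggc
TARS1: ctggaccagcTGATGCAATcgaaaggcgc
YARS2: tccacactgcTGATGGAAAaattaagttt

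The AARS1 stretch lies at chr16:70289676-70289704 (hg38, plus strand), with the element 188 bases before the start. The YARS2 stretch, chr12:32756076-32756104 (minus strand), lies 197 bases before it. In CARS1 (chr11:3057408-3057436, plus strand), MARS1 (chr12:57488053-57488081, minus strand) and IARS1 (chr9:92293693-92293721, plus strand) the element begins 3, 5 and 14 bases before it, and in TARS1 (chr5:33440956-33440984, minus strand) 1 base after it.

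The 250 bases before the start of AARS1 (chr16:70289507-70289756, minus strand, read 5′ to 3′ toward the gene) are shown because AARS1 was the member with the largest fall after A485. The capitals mark the same element, here on the opposite strand.
AARS1 upstream: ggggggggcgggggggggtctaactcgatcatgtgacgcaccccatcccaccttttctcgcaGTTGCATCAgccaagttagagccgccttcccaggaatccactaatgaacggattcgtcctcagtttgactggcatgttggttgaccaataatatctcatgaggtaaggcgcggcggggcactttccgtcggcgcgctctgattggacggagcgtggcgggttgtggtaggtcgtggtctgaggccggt

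In untreated cells the cytosolic genes stood at a higher level than the mitochondrial ones. Levels of different genes were compared as normalized reads per kilobase of transcript. The median over the 19 cytosolic genes was 3042 per kilobase in Control2 and 3413 in Control3, and over the 15 listed mitochondrial genes 323 and 314. Control6 gave medians of 1627 over 18 cytosolic and 257 over 15 mitochondrial genes.

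GARS1, the glycyl enzyme on chromosome 7, had the highest mean level of a cytosolic member in Control2, with 8778 and 7353 reads per kilobase in the 2 libraries. SARS1, the seryl enzyme, followed with 7515 and 7466, which lies within the spread of GARS1. WARS1, the tryptophanyl enzyme, had 4967 and 6831. These 3 genes also led in Control3 and Control6, with SARS1 first in both. At the other end, the valyl gene VARS1 had 3.12 and 1.19 reads per kilobase in Control2, the cysteinyl gene CARS1 179 and 324, and FARSB, a subunit of the phenylalanyl enzyme, 569 and 442.

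Among the mitochondrial genes IARS2, the isoleucyl enzyme, led in Control2 with 1806 and 1903 reads per kilobase. CARS2, with 1566 and 1865, and RARS2, with 1406 and 1709, overlapped it or each other. SARS2 was lowest with 30.6 and 18.4, below PARS2 with 103 and 68.6 and MARS2 with 121 and 105. Transcripts of the 2 classes were alike in base composition, with a median GC content of 49.5% for the cytosolic and 50.4% for the mitochondrial genes. Of the 35 members, 12 overlap another protein-coding gene, HARS1 and HARS2 each other and MARS1 the stress gene DDIT3 among them, and the strand setting of the authors' counting is not given, so reads of such pairs may be shared.

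After A485, which blocks p300, the cytosolic genes were lower and the mitochondrial genes stayed near the level of all genes. The median log2 fold change (treated over control, on the log2(value + 1) scale) was −0.95 over the 19 cytosolic genes, 0.05 over the 15 mitochondrial genes and 0.01 over all 16084 genes tested. Of the cytosolic genes, 18 of 19 were below 0, and both A485 libraries lay under both Control2 libraries in all 18. In the mitochondrial class 8 genes were above and 7 below 0, with the groups apart upward in 6 and downward in 5. Over all genes tested, 30.7% had groups apart downward and 30.4% upward. Calls needed an absolute log2 fold change above 1 and, from limma with Benjamini-Hochberg adjustment across the whole list, an adjusted p under 0.05. AARS1, WARS1, YARS1, GARS1, IARS1, MARS1 and SARS1 were called lower, 7 of 19 cytosolic and 0 of 15 mitochondrial genes, where 7.06% of all genes were called lower and 3.31% higher. This contrast chose the genes, so nothing is read from these shares. Without A485 library 1 the count was 1 and without A485 library 2 it was 2; the lone A485 library is then assumed to vary like the controls. The fold changes moved little when any 1 library was left out, from −2.09 to −1.95 for AARS1, −2.15 to −1.68 for WARS1 and −1.87 to −1.63 for YARS1.

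**Figure D1:**
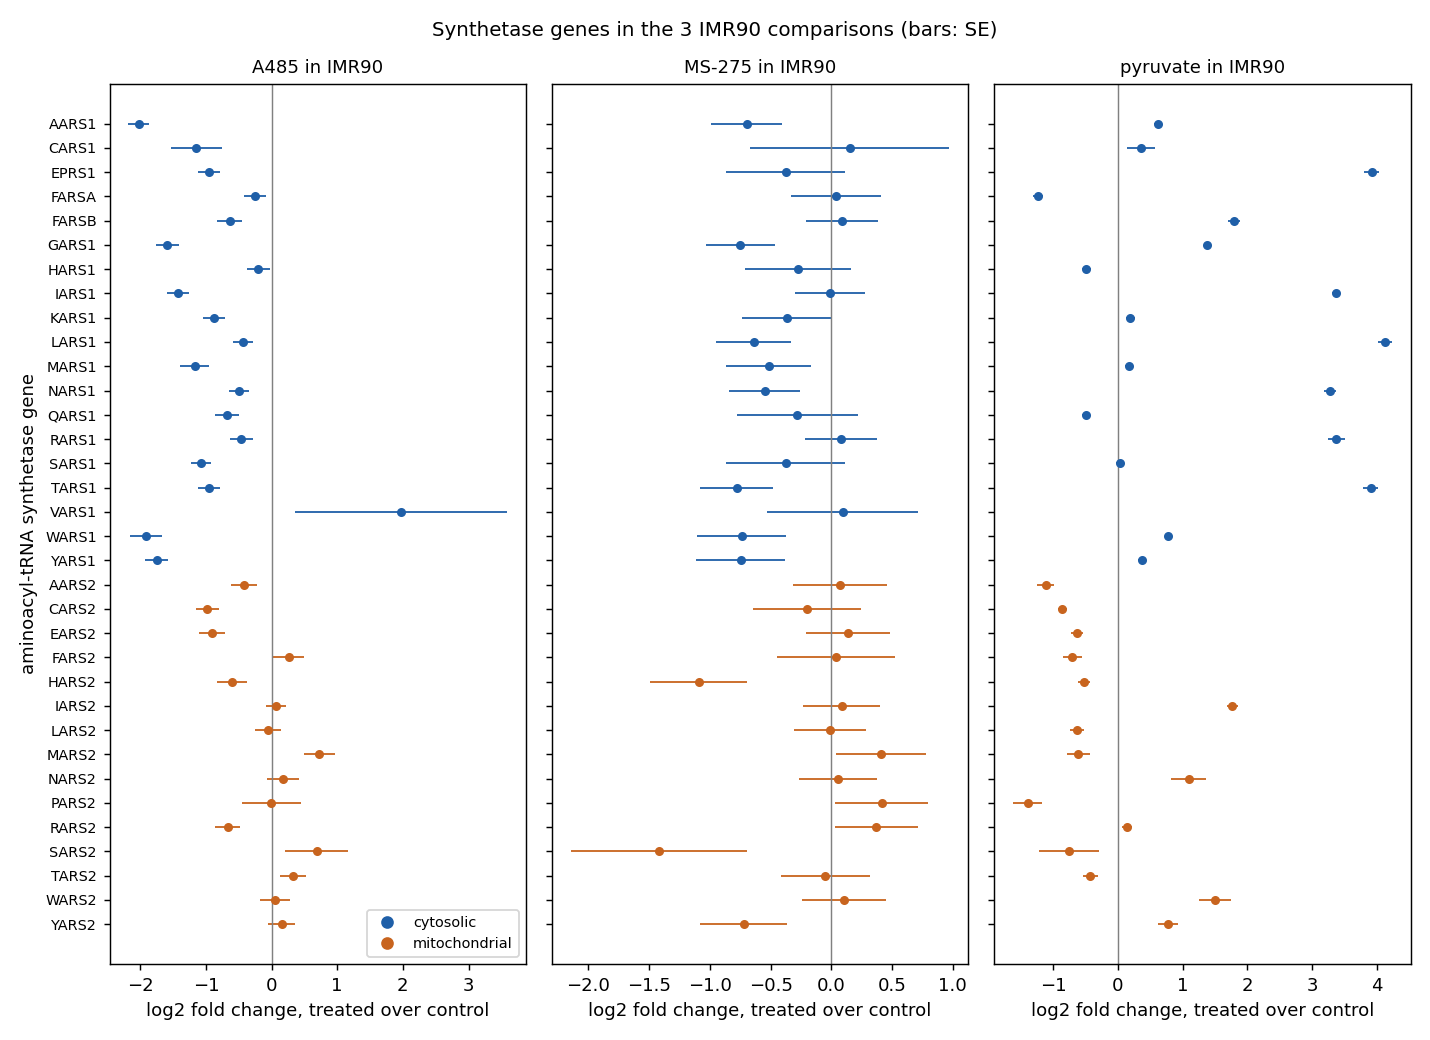
Log2 fold change (x axis) of each listed synthetase gene (y axis) in the 3 IMR90 comparisons, 1 panel each with its own scale; points are fold changes from 2 treated and 2 control libraries, bars are standard errors, blue marks cytosolic and orange mitochondrial genes. After A485 18 of 19 cytosolic points lie left of 0, and after pyruvate 15 of 18 lie right of it.

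AARS1, the alanyl enzyme, had 9053 and 8924 normalized reads in Control2 and 2108 and 2324 after A485, a log2 fold change of −2.02 (SE 0.16). WARS1 had 13108 and 18028 in control and 3466 and 4790 after A485, a change of −1.92 (SE 0.24). YARS1, the tyrosyl enzyme, had 11630 and 9793 in control and 2975 and 3379 after A485, a change of −1.75 (SE 0.18). In all 3 genes the 2 groups were far apart, and control was 3.37 to 4.06 times the treated mean.

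VARS1 was the exception among the cytosolic genes. It had 12.8 and 4.90 normalized reads in control and 5.06 and 206 after A485, so its groups overlapped and its log2 fold change of 1.97 (SE 1.62) rested on 1 library. Without A485 library 1 the change was 4.52.

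The other called genes fell in both A485 libraries as well. GARS1 went from 21392 and 17920 to 6480 and 6514, and IARS1, which carries the element printed above at its start, from 23528 and 21389 to 8046 and 8608. MARS1, the methionyl enzyme, went from 10625 and 9940 to 3793 and 5507, and SARS1 from 14383 and 14291 to 6668 and 6944. HARS1, the histidyl enzyme, and FARSA, the other phenylalanyl subunit, moved least among the 18, with log2 fold changes of −0.20 and −0.25. The 7 genes of the multisynthetase complex had a median of −0.88 and ranged from −1.43 for IARS1 to −0.43 for LARS1. The 12 other cytosolic genes had a median of −1.01. The 6 cytosolic genes with the element had a median of −1.16 and ranged from −2.02 to −0.50, and the 10 with a window but no element had a median of −0.78 and ranged from −1.92 to −0.20, so the ranges overlapped.

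Single mitochondrial genes moved in both directions. CARS2, the mitochondrial cysteinyl enzyme, had 2879 and 3427 normalized reads in control and 1571 and 1609 after A485, a log2 fold change of −0.98 (SE 0.17). EARS2, the glutamyl enzyme, had 1879 and 1646 in control and 847 and 1028 after A485, a change of −0.91 (SE 0.20). RARS2, the arginyl enzyme, had 3152 and 3832 in control and 1979 and 2417 after A485, a change of −0.67 (SE 0.19). These 3 had lower values in both treated libraries, while MARS2 had higher ones: 367 and 317 in control and 541 and 591 after A485, a change of 0.73 (SE 0.24).

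**Figure D2:**
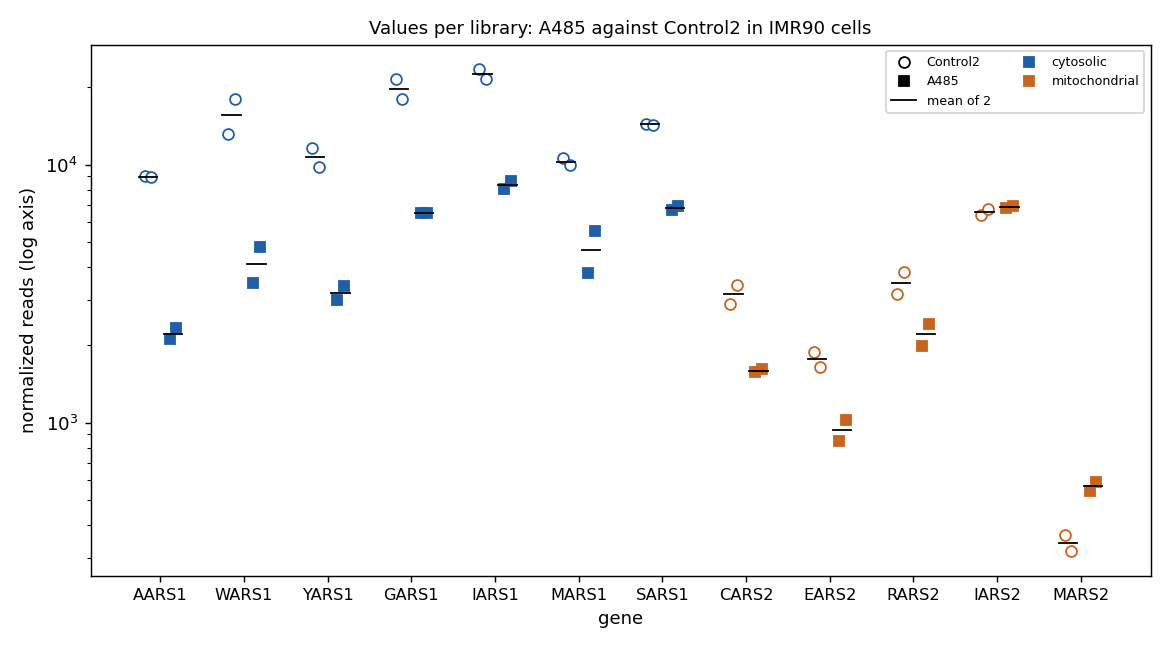
Normalized reads per library (y axis, log scale) of the 7 cytosolic genes called lower after A485, in order of fold change, and of 5 mitochondrial genes; open circles are the 2 Control2 libraries, filled squares the 2 A485 libraries, and lines their means. The A485 squares lie under the control circles for the 7 cytosolic genes and for CARS2, EARS2 and RARS2, at the same level for IARS2 and above for MARS2.

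For 12 amino acids both a cytosolic and a mitochondrial gene were listed. The cytosolic log2 fold change after A485 was the lower of the 2 in 10 of the 12 pairs, with a median difference (cytosolic minus mitochondrial) of −1.39 and the widest gap in the tryptophanyl pair, −1.97. HARS1 with HARS2 and RARS1 with RARS2 were the other 2 pairs, with differences of 0.40 and 0.21.

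Genes that work with the synthetases were read from 4 lists. Of 23 genes of the integrated stress response and ATF4 targets, 14 were called lower after A485 and 0 higher. Over all genes tested, 7.06% were called lower and 3.31% higher. The list had a median log2 fold change of −1.71. It was written with earlier results of these data known, so nothing is read from its share. ATF4 itself had 19676 and 18780 normalized reads in control and 7523 and 7235 after A485, a change of −1.38. PSAT1, which makes serine, went from 14861 and 11949 to 1622 and 1313, and the cystine carrier SLC7A11 from 18151 and 12749 to 105 and 266. The kinase EIF2AK4 had a change of −0.35 and was not called. Of the complex's 3 scaffold genes, AIMP2 was called lower, at −1.05. Of 5 cytosolic elongation factors, EEF1B2 and EEF1D were called lower, at −1.66 and −5.40. EEF1D had 1189 and 1317 normalized reads in Control2 and 50.6 and 16.0 after A485. In the other IMR90 controls, normalized separately, EEF1D had only 65.4 and 129 (Control3) and 41.3 and 91.1 (Control6). Why these controls differ was not tested. None of the 12 mitochondrial charging and translation factors was called, and their median was 0.11.

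Other genes moved with these in the same libraries. The summed level of the 8 fibroblast markers was 1357450 and 1511440 normalized reads in Control2 and 428267 and 502039 after A485. Of the 8, 7 were called lower, beside 7.06% of all genes tested. Scaling every library to the same total moved the median of all genes by 0.40. Relative to that shift the cytosolic median was −0.96 and the mitochondrial median 0.04. Under that scaling 5 cytosolic genes were called lower and MARS2 higher. The part of such shifts in composition in the result was not tested. In bulk libraries less RNA per cell and fewer cells of a type cannot be told apart.

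After MS-275, the deacetylase inhibitor, the cytosolic genes again had lower fold changes than the mitochondrial ones in IMR90 cells, with a smaller gap. The median log2 fold change was −0.37 over the 19 cytosolic genes, 0.06 over the 15 mitochondrial genes and −0.01 over all 15883 genes tested. Of the cytosolic genes 14 were below 0, and the 2 groups were apart downward in 8 and upward in 0. Of the mitochondrial genes they were apart downward in 3 and upward in 2. Over all genes 19.3% had groups apart downward and 19.5% upward. In fits without a term for the library number, no member was called by limma, by edgeR or by DESeq2, and 2 members had an unadjusted p under 0.05. Over all genes 0% were called higher and 0% lower by limma, with 1730 genes at an unadjusted p under 0.05, and DESeq2 called 575. The cytosolic median was −0.13 without Control3 library 2, −0.62 without Control3 library 1 and −0.63 without MS-275 library 2.

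The labels number the libraries of each group 1 and 2, and the difference between MS-275 and Control3 was also taken within each number. The cytosolic median was −0.40 within number 1 and −0.37 within number 2, and the mitochondrial median 0.07 and 0.02. In 13 of 19 cytosolic genes the MS-275 library was lower in both numbers and in 3 it was higher in both. In the mitochondrial class it was lower in both for 4 of 15 genes and higher in both for 6. Of all genes tested, 40.4% were lower and 38.6% higher in both numbers. Since the genes were chosen on this measure, nothing is read from the shares.

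TARS1, the threonyl enzyme, had 9376 and 8896 normalized reads in Control3 and 5919 and 4784 after MS-275, a log2 fold change of −0.78 (SE 0.30). GARS1 had 17468 and 17371 in control and 10968 and 9800 after MS-275, a change of −0.75 (SE 0.29). YARS1 had 8076 and 12189 in control and 5138 and 6809 after MS-275, a change of −0.75 (SE 0.37). In these 3 genes both MS-275 libraries lay under both controls. So did WARS1, with 15606 and 23978 in control and 10104 and 13305 after MS-275, a change of −0.74 (SE 0.37).

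The largest change in a mitochondrial member of at least 100 reads was that of HARS2, the mitochondrial histidyl enzyme on chromosome 5. It had 1305 and 1986 normalized reads in Control3 and 625 and 911 after MS-275, a log2 fold change of −1.09 (SE 0.40), with differences of −1.06 within number 1 and −1.12 within number 2. HARS1, which overlaps HARS2 in the annotation, had −0.32 and −0.23 in the same 2 numbers. YARS2, the only mitochondrial gene with the element, had 648 and 939 in control and 447 and 499 after MS-275, a change of −0.72 (SE 0.36).

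PARS2, the prolyl enzyme, and MARS2 were higher. PARS2 had 224 and 273 in control and 273 and 399 after MS-275, a change of 0.42 (SE 0.38), and MARS2 had 299 and 350 in control and 358 and 515 after MS-275, a change of 0.41 (SE 0.37). In both, the groups were barely apart. SARS2 had the lowest fold change of all members, −1.42 (SE 0.73), on few reads: 54.5 and 36.4 in control and 8.71 and 28.9 after MS-275.

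**Figure D3:**
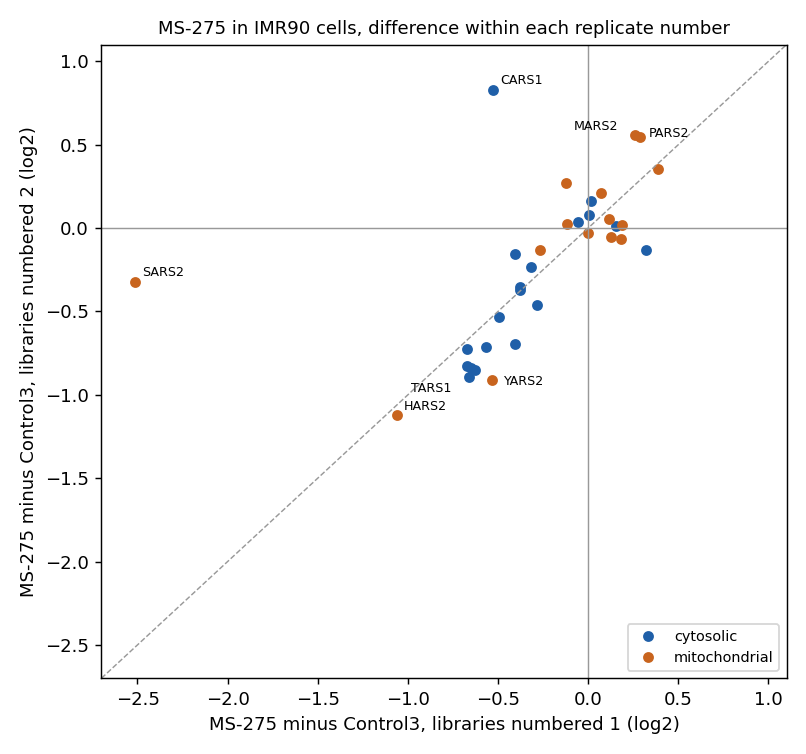
Difference between MS-275 and Control3 in IMR90 cells (log2) in the libraries numbered 1 (x axis) against those numbered 2 (y axis), 1 point per synthetase gene, blue cytosolic and orange mitochondrial; the dashed line marks equal differences. Of the 19 cytosolic points 13 lie below 0 on both axes, HARS2 lies near −1.06 and −1.12, and CARS1 and SARS2 lie off the line.

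Across the 19 cytosolic genes the A485 and MS-275 changes had a Spearman correlation of 0.53, and across the 15 mitochondrial genes of −0.11. The points are genes measured in the same 8 libraries and share their depth, so this is a description. Named genes behaved differently. IARS1 was called lower after A485 and was at −0.01 after MS-275, with 20315 and 17473 reads in Control3 and 19514 and 17911 in treated cells. CARS1 was −0.53 within number 1 and 0.83 within number 2 after MS-275.

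The stress response list had a median log2 fold change of −0.45 after MS-275, with 0 of 23 genes called. ATF4 was at −0.31. PHGDH, PSAT1 and PSPH, the 3 enzymes of serine synthesis, were at −1.91, −1.42 and −1.58, while CHAC1 and CEBPB, also ATF4 targets, were at 1.32 and 0.83. The scaffold genes had a median of −0.27, the elongation factors 0.29 and the mitochondrial factors 0.13, with 0 called in each list.

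Pyruvate moved the 2 classes apart in the opposite direction. The median log2 fold change against Control6 was 0.70 over 18 cytosolic genes, −0.61 over 15 mitochondrial genes and −0.01 over all 12013 genes tested. Of the cytosolic genes 15 were above 0 and 8 were called higher: LARS1, EPRS1, TARS1, RARS1, IARS1, NARS1, FARSB and GARS1. FARSA was called lower. Of the mitochondrial genes IARS2, WARS2 and NARS2 were called higher and PARS2 and AARS2 lower. Over all genes tested, 31% were called higher and 23.1% lower, so more than every second gene was called in this comparison, and nothing is read from the members' shares. The split of 11 members called higher and 3 lower moved with the scaling, to 13 and 1 with equal library totals, 10 and 5 with quantile normalization and 14 and 0 with the correction for GC content and length given later.

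LARS1, the leucyl enzyme, had 256 and 304 normalized reads in Control6 and 4782 and 4987 after pyruvate, a log2 fold change of 4.12 (SE 0.10). EPRS1, the enzyme for glutamate and proline, had 317 and 254 in control and 4229 and 4387 after pyruvate, a change of 3.92 (SE 0.11). TARS1 had 324 and 253 in control and 4283 and 4310 after pyruvate, a change of 3.90 (SE 0.12). In these genes the treated mean was 14.9 to 17.4 times the control mean. RARS1 had 322 and 447 in control and 3926 and 3976 after pyruvate, a change of 3.38 (SE 0.13).

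In the mitochondrial class IARS2 had 934 and 882 normalized reads in Control6 and 3160 and 3036 after pyruvate, a change of 1.77 (SE 0.08). WARS2 had 98.2 and 69.4 in control and 240 and 230.0 after pyruvate, a treated mean 2.80 times that of control. Both were higher in both treated libraries. PARS2 was lower, with 227 and 221 in control and 80.6 and 88.7 after pyruvate, a change of −1.40 (SE 0.22), and so was AARS2, the mitochondrial alanyl enzyme, with 955 and 855 in control and 377 and 458 after pyruvate, a change of −1.12 (SE 0.13).

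The size of a change followed the GC content of the transcript. Over 11888 genes the log2 fold change after pyruvate had a Spearman correlation of −0.72 with GC content, against −0.11 after A485 and −0.02 after MS-275. Over the 33 members the value for pyruvate was −0.80. Genes of 40 to 45% GC had a median change of 1.46 and those of at least 60% GC one of −1.18. The 6 cytosolic members in the first of these bins, EPRS1, IARS1, LARS1, NARS1, RARS1 and TARS1, had a median of 3.64, above the upper quartile of all 2518 genes in the bin, 2.31. The 4 mitochondrial members in the bin, IARS2, NARS2, RARS2 and WARS2, had a median of 1.29, within the quartiles of the bin.

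With a trend on GC content and transcript length removed from each library, the cytosolic median was 1.29, the mitochondrial median 0.23 and that of all genes 0.20. All 18 cytosolic genes were then above 0, with FARSA and FARSB below the median of all genes. Of the 18, 13 were called higher and 0 lower. The share of all genes called under this correction is not given here, so nothing is read from that count. FARSA, of 61.3% GC, changed sign, from −1.24 to 0.16, which was below the 0.20 of all genes. HARS1 changed sign from −0.49 to 0.49, and QARS1 from −0.50 to 0.59. LARS1 was at 2.60, EPRS1 at 2.54 and TARS1 at 2.99. FARSB, the member of lowest GC content, went from 1.80 to 0.03. In the mitochondrial class 9 of 15 genes were above 0, PARS2 and AARS2 were no longer called (−0.34 and −0.29), and YARS2 was the only gene called higher, at 1.42.

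**Figure D4:**
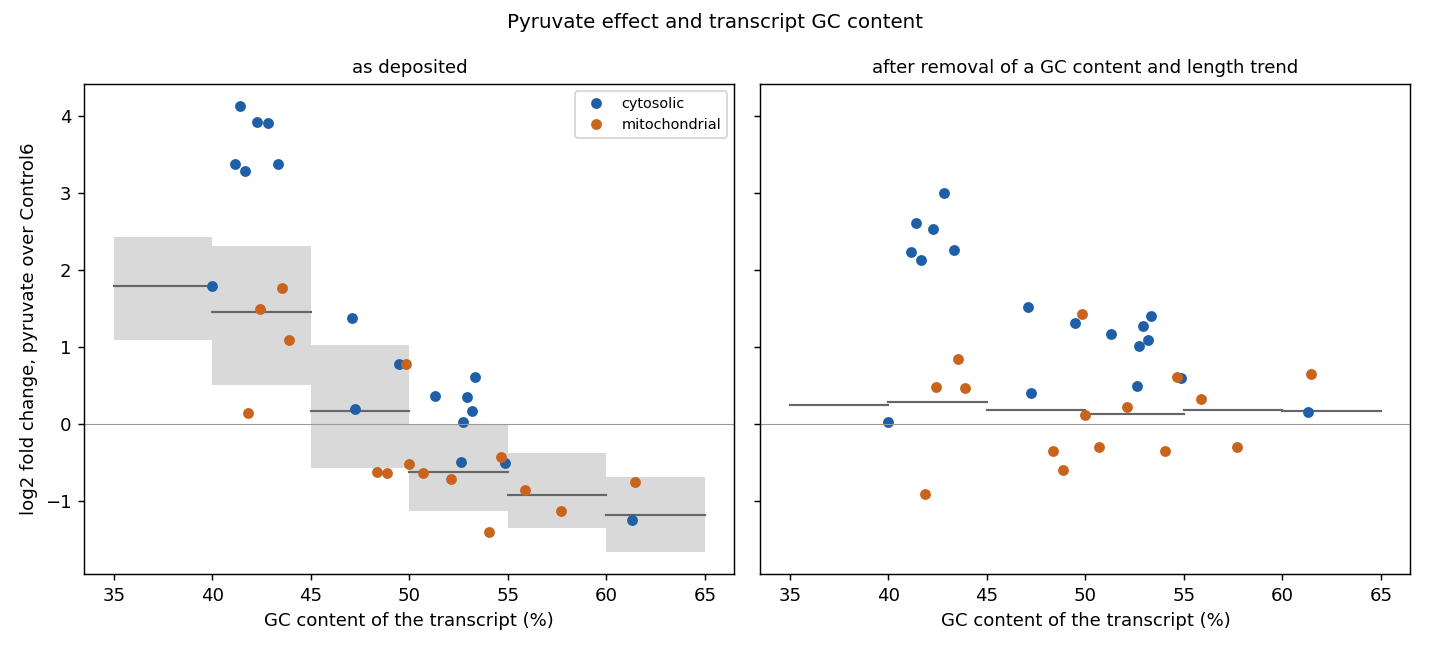
Log2 fold change after pyruvate (y axis) against GC content of the transcript in percent (x axis) for each synthetase gene, as deposited (left) and after removal of a trend on GC content and length (right); blue is cytosolic and orange mitochondrial. Grey bars span the quartiles of all genes in each GC bin and lines are bin medians, and 6 cytosolic genes between 41.1% and 43.3% GC stand above the bars at 3.28 to 4.12.

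The same 6 genes stood far lower in Control6 than in Control2. EPRS1 had a mean of 58.7 reads per kilobase in Control6 and 2561 in Control2, and the ratio of Control2 to Control6 was 43.6 for EPRS1, 35.6 for TARS1, 25.2 for LARS1, 22.6 for NARS1, 16.8 for RARS1 and 13.8 for IARS1. After pyruvate their levels were 886 (EPRS1), 1608 (TARS1), 1026 (LARS1), 1571 (NARS1), 1862 (RARS1) and 3758 (IARS1) reads per kilobase, each below its mean in Control2. The tables were normalized separately, so these ratios across tables are levels set side by side and were not tested. Over the 27 other members with both values the ratio ran from 0.88 to 7.21. Genes outside the members could also stand far lower in Control6. AIMP1 had 2141 and 2280 normalized reads in Control2 and 96.3 and 98.7 in Control6. MTHFD2 had 10798 and 7380 against 470 and 447, while the mitochondrial factor TUFM had 5861 and 5656 against 5132 and 5661. The lower level was thus not particular to these 6 members, and how many other genes shared it was not counted. What part the GC content of the libraries plays in the pyruvate result was not tested beyond the correction given above.

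In 10 of 12 amino acid pairs the cytosolic gene had the higher log2 fold change after pyruvate, with a median difference of 1.41 and the widest gap in the leucyl pair, 4.76. The tryptophanyl and tyrosyl pairs were the exceptions, with differences of −0.72 and −0.41. After the GC and length correction WARS1 was at 1.31 and WARS2 at 0.48, so that pair changed order. With the same correction YARS1 was at 1.17 and YARS2 at 1.42, and LARS1 at 2.60 and LARS2 at −0.29. Of 22 tested genes of the stress response list 9 were called higher and 0 lower, beside 31% and 23.1% of all genes, and the median was 0.85, or 1.60 after the GC and length correction. Nothing is read from that share. MTHFD2, a mitochondrial folate enzyme, had 470 and 447 normalized reads in control and 6398 and 6141 after pyruvate, and PSAT1 had 770 and 856 in control and 10089 and 10037 after pyruvate. ATF4 itself was at −0.05, or 0.99 after the correction. Of the 11 mitochondrial charging and translation factors tested, 7 were called higher, against the same 31% of all genes, with a median of 1.51, which was 0.30 after the correction.

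In mouse muscle far fewer of the genes passed the list filters. Of the 35 members 17 were listed in the MS-275 comparison, 10 cytosolic and 7 mitochondrial, and 16 in the NALA comparison, 10 and 6. Of the multisynthetase complex only Qars and Rars were listed, and no scaffold gene was. These comparisons did not choose the members and were tested.

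After MS-275 injection, 3 of the 17 members were called higher and 0 lower, beside 9.24% and 6.97% of the 9494 genes tested. Of the 17 log2 fold changes, 12 were above 0 and 5 below. Rars, the cytosolic arginyl enzyme (chr11:35808381-35834506, mm10), had 89.5 and 97.2 normalized reads in Control4 and 381 and 381 after MS-275, a log2 fold change of 2.02 (SE 0.26, adjusted p = 0.0099, limma). Sars2, the mitochondrial seryl enzyme (chr7:28741992-28753871), had 24.6 and 60.2 in control and 725 and 595 after MS-275, a change of 4.05 (SE 0.45, limma adjusted p = 0.00778). Fars2, the mitochondrial phenylalanyl enzyme (chr13:36117412-36726280), had 9.08 and 27.4 in control and 406 and 234 after MS-275, a change of 4.19 (SE 0.58, limma adjusted p = 0.0111). The groups were apart in all 3. Fars2 spans other genes, Lyrm4 and Nrn1 among them, with which it may share reads.

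The calls did not all hold with 1 library left out, where a lone library is assumed to vary like the other group. With MS-275 library 1 left out no member was called, and the adjusted p was 0.0509 for Rars, 0.0576 for Sars2 and 0.0739 for Fars2. With MS-275 library 2 left out Rars alone was called, and with Control4 library 1 left out Rars was at 0.052. Over all 4 ways to leave out a library the fold change ran from 1.96 to 2.08 for Rars, 3.42 to 4.68 for Sars2 and 3.45 to 4.94 for Fars2.

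The median log2 fold change over the 10 cytosolic genes was 0.41 and over the 7 mitochondrial genes 0.91, beside 0.01 over all genes tested. The other 14 members did not pass. Of 9 tested genes of the stress response list, Ppp1r15a was called higher, with 0 and 6.85 normalized reads in control and 184 and 394 after MS-275, and Psph lower, with 3187 and 3121 in control and 460 and 692. No elongation factor (1 tested) and no mitochondrial factor (5 tested) was called. Among the synthetases that did not pass, Vars had 130 and 140 normalized reads in control and 306 and 221 after MS-275 (log2 fold change 0.95, limma adjusted p = 0.0717), and Aars had 141 and 134 in control and 252 and 223 (0.78, limma adjusted p = 0.0921). At the other end Rars2 had 733 and 739 in control and 517 and 563 (−0.45, limma adjusted p = 0.22).

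**Figure D5:**
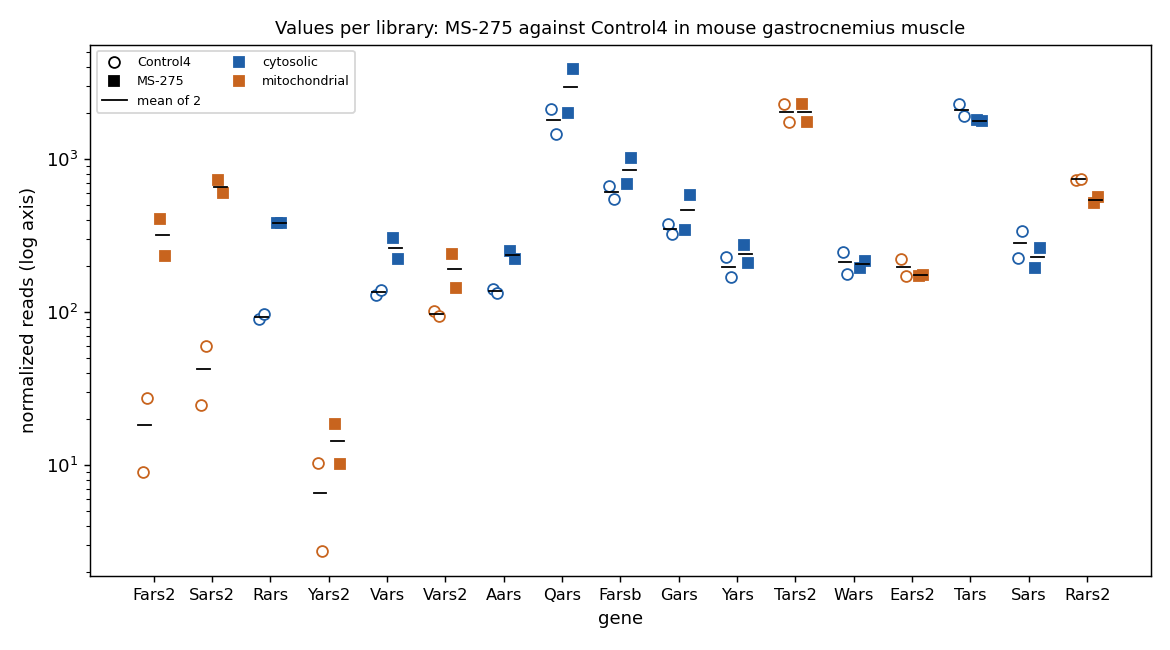
Normalized reads per library (y axis, log scale) of the 17 listed synthetase genes in gastrocnemius muscle, in order of fold change; open circles are the 2 Control4 libraries, filled squares the 2 MS-275 libraries, lines their means, blue cytosolic and orange mitochondrial. Fars2, Sars2 and Rars stand apart at the left, with 9.08 to 97.2 reads in control and 234 to 725 after MS-275.

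The muscle libraries of this comparison differed in more than these genes. Mitochondrial genome reads made up 39.0% and 30.8% of the total in Control4 and 22.0% and 21.9% after MS-275. The collagen gene Col3a1, the only listed one of 4 fibroblast markers, had 298 and 378 normalized reads in control and 2679 and 4592 after MS-275, and the summed level of the 4 listed fibre markers was 2972 and 3501 in control and 1059 and 2271 after MS-275. That sum followed Mylpf, a fast myosin light chain, with 2357 and 2543 in control and 221 and 769 after MS-275. Ckm was called higher, with 20.8 and 19.2 in control and 69.2 and 70.9 after MS-275, and Myh4 and Myh1 were not called, at log2 fold changes of 1.48 and −0.01. Of the 3 listed immune markers, Ptprc, a leukocyte gene, was called higher, with 2.59 and 4.11 in control and 213 and 28.2 after MS-275. Itgam was called lower, with 127 and 100 in control and 29.0 and 46.1 after MS-275. Cd68 was not called, at a log2 fold change of −1.50. The part of these markers in the rise of the 3 genes was not tested. Scaling to equal totals moved the median of all genes by 0.97 and the change of Rars to 2.97, and 9 members were then called higher. The share of all genes called under that scaling is not given here, so nothing is read from the 9.

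After NALA no member was called by limma, edgeR or DESeq2, and 1.56% of the 8895 genes tested were called higher and 1.79% lower. By limma 5 of the 16 members had an unadjusted p under 0.05, beside 2373 of the 8895 genes tested. An adjusted p under 0.05, without the limit on fold change, was reached by 6.32% of genes upward and 9.06% downward, and by 1 member upward and 3 downward. Wars, the tryptophanyl enzyme, had 298 and 296 normalized reads in Control5 and 177 and 199 after NALA, a log2 fold change of −0.66 (SE 0.13, adjusted p = 0.000388, limma). Yars had 120 and 127 in control and 176 and 212 after NALA, a change of 0.64 (SE 0.16, limma adjusted p = 0.00474). Fars2 had 140 and 133 in control and 89.3 and 82.4 after NALA, a change of −0.66 (SE 0.19, limma adjusted p = 0.0125). In these 3 the groups were apart. Some markers of other cell types and of fibres moved in the same libraries. Col3a1 fell from 634 and 565 in Control5 to 304 and 349, and Mylpf from 3365 and 3424 to 2246 and 2192. Of 4 endothelial markers only Cdh5 and Tek were listed, and they differed. Cdh5 was called higher on few reads, at 3.33 and 0 in Control5 against 23.2 and 36.5 with NALA. Tek was not called, at 35.5 and 33.8 in Control5 against 32.1 and 28.1 with NALA (log2 fold change −0.20). What part such markers play in the changes of Wars, Yars and Fars2 was not tested. Of the lists, 0 of 6 stress response genes, 0 of 1 elongation factor and 0 of 4 mitochondrial factors were called after NALA. The fourth member, Tars2, changed by −0.23 (limma adjusted p = 0.0159), and the class medians were −0.003 and −0.10.

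The effects of MS-275 and NALA in muscle were compared in 1 fit over the 8 muscle libraries, in which 20.2% of 8753 genes differed at an adjusted p under 0.05. Of 16 members 3 differed. The MS-275 change exceeded the NALA change by 1.98 for Rars (SE 0.25, adjusted p = 0.00179, limma), by 4.60 for Sars2 (SE 0.56, limma adjusted p = 0.00164) and by 4.86 for Fars2 (SE 0.65, limma adjusted p = 0.00225). The mice of the 2 experiments differed in age, and agent and age cannot be told apart in this difference.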

How the data were processed

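RNA-seq was carried out on 12 IMR90 and 8 mouse muscle libraries. The authors trimmed reads with Trim Galore 0.6.10, aligned them with HISAT2 2.2.1 to hg38 or mm10 and counted them with featureCounts 2.0.6 (SAMtools 1.7 is also named), and the deposited signal is the count of each gene divided by a DESeq2 1.34.0 size factor, for each comparison separately. The annotation and strand setting of the counting are not given in the sources used here. All values were whole multiples of 1 read (100%, tolerance 0.02 reads), so reads were recovered for edgeR and DESeq2.

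Groups were taken from the labels. Each comparison was fitted over its own 4 libraries on log2(value + 1) for genes with a mean of at least 10, using limma 3.58.1 with a trended empirical Bayes prior and Benjamini-Hochberg adjustment over all genes tested. A gene was called past an absolute log2 fold change of 1 at an adjusted p of 0.05. The difference between the muscle effects was fitted over the 8 muscle libraries. Members and lists were chosen with earlier results of these data known. Members with values in every library were the 4 cytosolic and 4 mitochondrial ones with the largest absolute fold change in each IMR90 comparison (with 100 or more reads as the mean of the higher group), those called in muscle or the 3 of smallest p, and the 3 highest and 3 lowest levels of each class; SARS2 and CARS1 after MS-275, IARS1 beside it and the other called members were added after their values were seen. GENCODE annotation gave lengths, GC content and overlaps, and mouse members were matched by their older symbols. R 4.3.3, edgeR 4.0.16, DESeq2 1.42.0, Python 3.11.15, numpy 2.4.6, pandas 2.3.3, scipy 1.17.1 and matplotlib 3.10.9 were used. Scripts were tested on simulated data. Alternatives covered pseudocounts of 0.1 and 10, filters, scaling, the prior, a GC and length correction, a replicate block, count models, fold limits and leaving out each library.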

Additional observations from a re-analysis of the deposited data

Results flagged for a closer look

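The effects of MS-275 and NALA in muscle differed for 3 synthetase genes in a test of the difference itself over 8 libraries (limma). MS-275 exceeded NALA by 1.98 on the log2 scale for Rars, by 4.86 for Fars2 and by 4.60 for Sars2. For Rars the NALA libraries and their controls lay between 162 and 172 normalized reads, and for Sars2 between 43.0 and 78.2. Fars2 had 140 and 133 in Control5 and 89.3 and 82.4 after NALA. In Control4 the values were 89.5 and 97.2 for Rars, 24.6 and 60.2 for Sars2 and 9.08 and 27.4 for Fars2. The untreated controls of the 2 experiments thus lay apart for Rars and Fars2, and their part in the differences of these 2 genes was not tested.

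For 2 members the treated libraries lay apart from both controls in IMR90 cells and in mouse muscle after MS-275, on opposite sides; other members had fold changes of opposite sign with overlapping libraries in at least 1 of the comparisons. AARS1 was at −0.70 in IMR90 cells and Aars at 0.78 in muscle. SARS2 was at −1.42 in IMR90 cells, on 8.71 to 54.5 normalized reads, and Sars2 at 4.05 in muscle. The difference between these 2 species was not tested.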

How the results depend on the processing

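Members called after A485 numbered 4 with quantile normalization, 4 without a variance trend, 12 with a fold limit of 0.58, 12 with none, and 1 to 8 with a library left out. The cytosolic median was −0.56 with equal totals, −0.66 with quantile normalization, −0.93 with edgeR and −0.90 to −0.85 with a library left out, and the mitochondrial median 0.45, 0.13 (equal totals, quantile) and −0.053 to 0.15. After MS-275 in IMR90 cells the cytosolic median ran from −0.63 to −0.13 with a library left out. After pyruvate 22 members were called with a fold limit of 0.58 and 29 with none. The cytosolic median was 1.01 with equal totals, 1.03 with quantile normalization and 1.29 with the GC and length correction, and the mitochondrial median −0.30 with equal totals, 0.23 with that correction, −0.57 with edgeR, −0.57 at a mean of at least 50 and −0.61 to −0.50 with a library left out. In muscle, 9 members were called after MS-275 with equal totals and 0 to 3 with a library left out, and after NALA 3 with a fold limit of 0.58 and 4 with none. With equal totals the median of all genes in muscle after MS-275 was 0.97, so nothing is read from the 9 members called there. The causes were not tested. Of the recomputed counts of members called and IMR90 class medians, 157 stayed within 1.5 times the count or 1 SD between replicates of the median, and 41 moved. Groups share replicate numbers that no label ties to a culture or animal. Deviations of same-numbered libraries correlated at 0.40 (A485), 0.91 (MS-275, IMR90), −0.05 (pyruvate), −0.14 (MS-275, muscle) and −0.01 (NALA). With the replicate block, 1 member, HARS2, was called lower after MS-275 in IMR90 cells (also 1 with the GC and length correction), genes called went from 1667 to 2486 after A485 and from 0 to 2183 after MS-275 in IMR90 cells, and the pyruvate medians with block and correction were 1.29 and 0.23. The crossed pairing, chosen after seeing the data, called 1730 genes in muscle after MS-275, against 1539 without a block and 1556 with it. DESeq2 called 575 genes after MS-275 in IMR90 cells. With 2 libraries a group, changes smaller than the spread between libraries could not be resolved.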

Other observations

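Few reads were counted for the valyl enzymes in IMR90 cells. VARS1 had 4.90 to 21.3 normalized reads in 7 of the 8 libraries that list it and 206 in A485 library 2, and VARS2 was not listed. In mouse muscle Vars had 130 and 140 normalized reads in Control4 and 306 and 221 after MS-275. ASNS, which makes asparagine, also had few reads in IMR90 cells, with 89.9 and 29.4 in Control2 and 51.5 and 54.6 in Control3, as did the mitochondrial elongation factor TSFM, with 9.63 and 13.5 in Control2. The annotation used for counting is not given in the sources used here, and whether these counts measure the expression of these genes was not tested.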
